A study of Mus musculus with 9 samples.

Results

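Abcg5 and Abcg8, the hepatic sterol exporters, were described here together with 7 further genes of the liver X receptor (LXR) axis: Abca1, Abcg1, Nr1h3, Nr1h2, Mylip, Lpcat3 and Scarb1. The 9 genes were found by their symbol among the 19686 genes of the count table, and all 9 were present and passed the filter on low counts in each comparison. Abcg8, at 2 to 8 counts in the model rats, passed it in the comparisons with the model group only through the control or HME rats. Abcg5 and Abcg8 were selected on their measured change between the groups in these same rats, so their levels and fold changes are given as a description, and nothing is read from whether they pass a test. The other 7 genes were chosen by their place in the pathway.

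Hepatic RNA of 9 male Wistar rats was sequenced, 3 in each of 3 groups. The control group drank purified water, and the model group drank 15% fructose for 8 weeks. The HME group, labelled DSS, drank the same fructose and received by gavage the 50% methanol extract of Danggui-Shaoyao-San, a Chinese herbal formula, at 1.8 g/kg. Control and model rats received saline by gavage, and all rats were fasted for 12 h before sacrifice. Neither a genotype nor an age was given in the sources used here. No group of control rats received the extract without fructose, so an effect of the extract apart from fructose could not be measured.

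ABCG5 and ABCG8 are transporter subunits that work only as a pair. The heterodimer sits in the canalicular membrane of the hepatocyte and the brush border of the enterocyte and pumps cholesterol and plant sterols out of the cell, into bile and into the gut. LXR is a nuclear receptor that binds oxysterols and drives genes of sterol removal as a dimer with RXR. Nr1h3 encodes LXRα, the form abundant in liver, and Nr1h2 encodes the widely expressed LXRβ. Abcg5, Abcg8, Abca1, Abcg1, Mylip and Lpcat3 are known LXR targets.

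Abcg5 and Abcg8 lie head to head in mammals and share the stretch between their start sites. That stretch is shown because the pair is described here as a unit. The sequence is that of the mouse, from the RefSeq promoter table on GRCm38.p6, and not that of the rats sequenced, whose genome was not used here. The mouse Abcg5 start lies at position 84683011 of chromosome 17, on the minus strand, and the nearer of the listed Abcg8 starts lies 110 bases away at 84683121 on the plus strand. The 109 bases between them, with 45.9% G and C, read on the plus strand at chr17:84683012-84683120 as follows, with capitals marking TTATC and TTTATA, the reverse complements of GATAA and TATAAA.
Abcg5-Abcg8 intergenic stretch (mouse): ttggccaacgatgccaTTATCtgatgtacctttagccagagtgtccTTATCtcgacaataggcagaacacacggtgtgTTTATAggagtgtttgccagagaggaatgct

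Promoters of 300 bases, 250 before and 50 after each start, were searched on both strands in the same mouse table, which matched 7 of the 9 members. GATAA, a motif chosen after this sequence was seen, was found in Abcg5 and Abcg8 alone of the 7 and in 25.4% of all 32851 promoters. TATAAA was found in Abcg5, Abcg8, Abca1 and Mylip and in 13.6% of all promoters. The windows of Abcg5 and of the nearer Abcg8 start both hold the whole stretch printed above, so they share its matches. The window of the other listed Abcg8 start held neither GATAA nor TATAAA. The nuclear receptor core motif AGGTCA was in 16.3% of promoters, its direct repeat 4 bases apart with at most 2 mismatches in 3.02%, and TCAAGGTCA in 0.423%. None of these 3 motifs was in the promoter of a matched member. A match is a run of letters and not a measured site, and no match says only that the letters are absent from this window.

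Total counts per library ran from 14345819 to 26837227. The unit of every level is CPM, in which counts are brought to a common library size after normalization by the trimmed mean of M values (TMM). Gene length was not used, so levels were compared between rats and not between genes. Alb, which encodes albumin, was at 87212 CPM or more in every rat, and the summed level of 10 hepatocyte markers was 116463 to 145114 CPM in control, 139893 to 185220 CPM in model and 143350 to 177430 CPM in HME rats. Reads were counted without regard to strand, so reads of a gene and of one overlapping it on the other strand cannot be told apart.

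Hepatic RNA of Abcg5 (ENSRNOG00000005250) was lowest in the model group and highest in the HME group. The control rats had 14.5, 5.55 and 7.92 CPM of Abcg5, the model rats 0.685, 0.772 and 0.617 CPM, and the HME rats 75.1, 31.6 and 39.8 CPM. All 3 groups were apart: each HME rat was above each control rat and each control rat above each model rat. Group means were 9.34 ± 4.66, 0.691 ± 0.0776 and 48.8 ± 23.1 CPM (SD, n = 3). The HME mean was 70.7-fold the model mean and 5.23-fold the control mean, and the control mean was 13.5-fold the model mean. Between the nearest rats of each pair of groups, the lowest HME rat was 41.0-fold the highest model rat, the lowest control rat 7.19-fold the highest model rat and the lowest HME rat 2.17-fold the highest control rat.

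Abcg8 (ENSRNOG00000005420), the partner subunit, followed the same order. Its level was 10.9, 3.04 and 3.79 CPM in the control rats, 0.214, 0.129 and 0.493 CPM in the model rats, and 40.8, 20.3 and 25.1 CPM in the HME rats. Again no groups overlapped, with means of 5.91 ± 4.33, 0.279 ± 0.191 and 28.7 ± 10.7 CPM (SD, n = 3). The HME mean was 103-fold the model mean and 4.86-fold the control mean, and the control mean was 21.2-fold the model mean. The lowest HME rat was 41.1-fold the highest model rat, and 1.86-fold the highest control rat. The lowest control rat was 6.17-fold the highest model rat. Single rats moved the fitted fold changes of Abcg8 by over 1.5 times. Without control replicate 1 its log2 fold change was 3.07 in place of 2.24 for HME against control and -3.60 in place of -4.41 for model against control. Without model replicate 3 it was -5.01 for model against control and 7.29 in place of 6.69 for HME against model.

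The model values rest on few reads. Abcg5 had 16, 12 and 10 counts and Abcg8 had 5, 2 and 8 counts in the model rats, against 586 to 1381 and 376 to 751 counts in the HME rats. From the summed counts, 2737 against 38, the HME to model ratio of Abcg5 was 70.5, with an exact 95% interval of 51.3 to 99.9. For Abcg8, 1613 against 15 counts gave a ratio of 105, with an interval of 63.7 to 189. These intervals cover counting error only and leave out the spread between rats. In bulk liver, fewer cells that express a gene and less RNA per cell cannot be told apart.

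**Figure D1:**
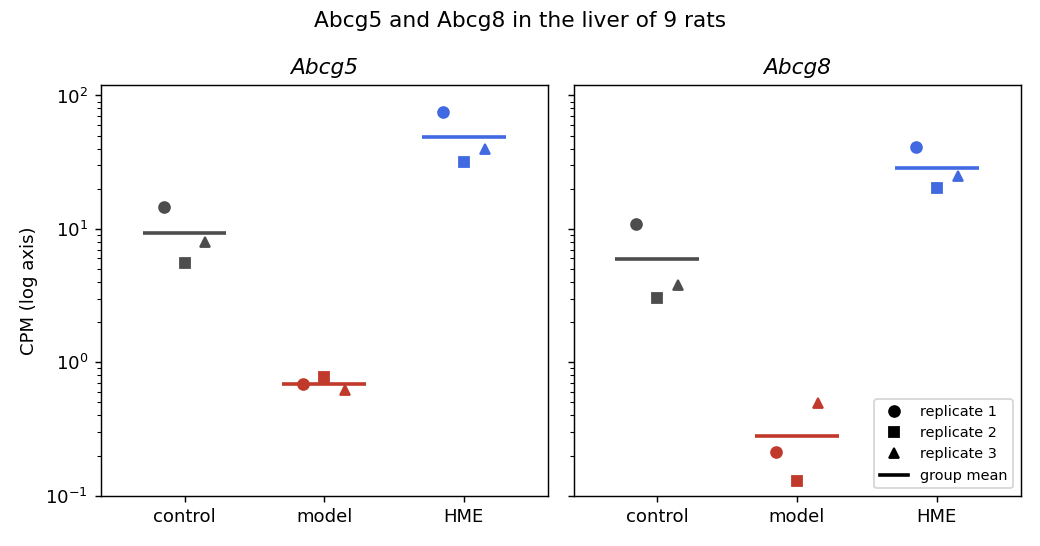
Level of Abcg5 and Abcg8 in CPM on a log axis for each of the 9 rats, with marker shapes for replicates and bars for group means. The model rats lie between 0.129 and 0.772 CPM, below every control rat, and the HME rats lie at 20.3 CPM or more, above every control rat.

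Both subunits ranked the rats alike within the control and the HME groups. Control replicate 1 had the highest level of both genes in its group and replicate 2 the lowest, and HME replicate 1 had the highest and replicate 2 the lowest. In the model group the orders differed, since replicate 2 was highest for Abcg5 and lowest for Abcg8, at 2 counts. Over the 9 rats the highest level was 122-fold the lowest for Abcg5 and 318-fold for Abcg8. For the other 7 members this ratio was 1.36 to 2.24.

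The balance of the subunits was read as the share of Abcg8 in the reads of both genes, which needs no scaling between libraries. That share was 42.8%, 35.4% and 32.4% in the control rats and 35.2%, 39.1% and 38.7% in the HME rats. The HME shares lay within the range of the control shares, among which control replicate 1 was the highest. With 3 rats a group and counting error in each share, this does not show that the balance was the same. In the model rats the share was 23.8%, 14.3% and 44.4%, or 28.3% of 53 reads (exact 95% binomial interval 16.8 to 42.3, for counting error only). A shift of the balance in the model group was not detectable at this depth.

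**Figure D2:**
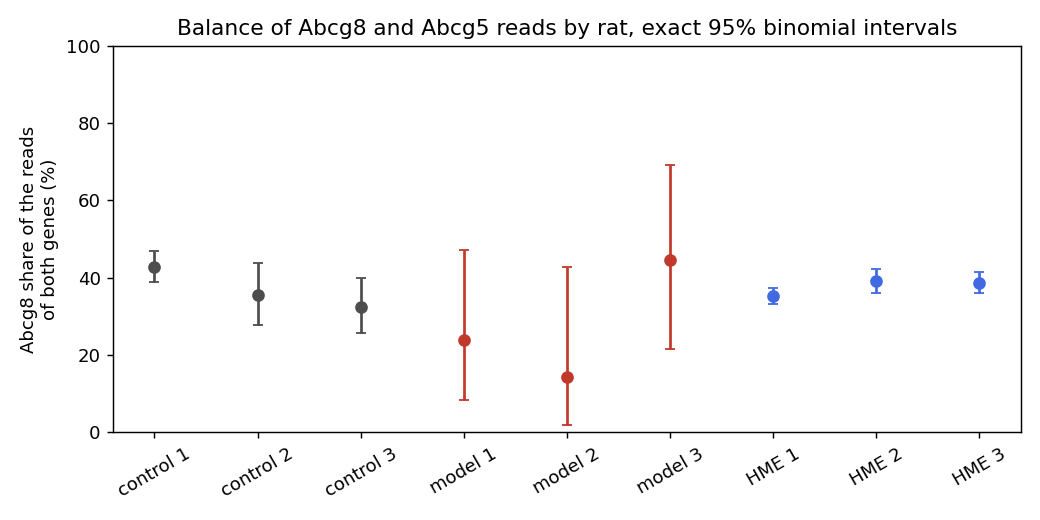
Share of Abcg8 in the summed reads of Abcg5 and Abcg8, in percent, for each rat, with exact 95% binomial intervals that cover counting error only. The control and HME shares lie between 32.4% and 42.8%, while the model intervals run from 1.78% to 69.2%.

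LXR itself was compared between groups at the RNA level of its 2 genes. Nr1h3, for LXRα, was at 126, 142 and 136 CPM in control, 167, 138 and 131 CPM in model and 122, 101 and 134 CPM in HME rats. The ranges overlapped in all 3 comparisons. The log2 fold change was 0.11 for model against control (95% interval -0.22 to 0.44), -0.28 for HME against model (-0.65 to 0.09) and -0.18 for HME against control (-0.47 to 0.11), with edgeR FDR of 0.787, 0.760 and 0.423. The sign of the first was opposite, at -0.041, when libraries were scaled by size alone.

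Nr1h2, for LXRβ, was at 37.7, 37.7 and 36.2 CPM in control, 48.6, 42.4 and 44.9 CPM in model and 47.2, 45.1 and 49.3 CPM in HME rats. All rats that drank fructose were above all control rats, and the 2 fructose groups overlapped. The log2 fold change was 0.28 for model against control (95% interval 0.00 to 0.57, FDR = 0.372) and 0.34 for HME against control (0.13 to 0.55, FDR = 0.0625), and neither passed the edgeR test. With library size alone as the scaling, which moved the median of all genes by -0.144 and -0.136 in these comparisons, they were 0.13 and 0.20. HME against model gave 0.06 (-0.22 to 0.34, FDR = 0.931).

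Abca1 and Abcg1 are the LXR targets that hand cholesterol to lipoproteins, Abca1 to lipid-poor apolipoprotein A-I and Abcg1 to mature HDL. The level of Abca1 was 112, 108 and 80.8 CPM in control, 76.7, 102 and 95.8 CPM in model and 79.8, 89.0 and 108 CPM in HME rats. Every pair of groups overlapped. For HME against model, where the pair differed most, the log2 fold change of Abca1 was 0.02 (95% interval -0.37 to 0.40, edgeR FDR = 0.985). It was -0.0035 with library size alone. For model against control it was -0.13 (-0.52 to 0.26, FDR = 0.779), and for HME against control -0.12 (-0.48 to 0.23, FDR = 0.685).

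The level of Abcg1, a close relative of the pair within the ABCG family, was 7.93, 5.91 and 7.72 CPM in control, 5.74, 10.5 and 4.69 CPM in model and 8.16, 8.31 and 7.96 CPM in HME rats. Model replicate 2 stood above the other 2 model rats, while the HME rats were close together and just above the control rats. The log2 fold change was -0.06 for model against control (95% interval -0.75 to 0.64, edgeR FDR = 0.958), 0.24 for HME against model (-0.44 to 0.91, FDR = 0.893) and 0.17 for HME against control (-0.19 to 0.54, FDR = 0.562). The intervals of the first 2 comparisons reach past a 1.5-fold change, so a change of that size was not detectable.

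Mylip, also called Idol, encodes a ubiquitin ligase that sends the LDL receptor to degradation. Its level was 5.21, 3.04 and 3.93 CPM in control, 3.25, 6.17 and 2.84 CPM in model and 6.20, 5.56 and 4.34 CPM in HME rats, with overlap in every comparison. The log2 fold change was -0.01 (95% interval -0.80 to 0.79) for model against control and 0.41 (-0.34 to 1.15) for HME against model, with edgeR FDR of 0.994 and 0.834. HME against control gave 0.39 (-0.16 to 0.93, FDR = 0.363).

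Lpcat3 puts polyunsaturated chains into membrane phospholipids. It was at 73.2, 90.2 and 69.6 CPM in control, 75.2, 68.7 and 71.1 CPM in model and 63.1, 62.4 and 69.3 CPM in HME rats. The HME rats were all below the control rats, by a narrow gap, with a log2 fold change of -0.26 (95% interval -0.53 to 0.01, edgeR FDR = 0.222). HME against model gave -0.14 (-0.41 to 0.14, FDR = 0.853), and model against control -0.12 (-0.44 to 0.21, FDR = 0.768).

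Scarb1 encodes SR-BI, the receptor that takes up cholesteryl esters from HDL and so brings sterol into the hepatocyte. Its level was 65.8, 77.0 and 66.2 CPM in control, 73.2, 87.7 and 76.5 CPM in model and 115, 93.5 and 142 CPM in HME rats. Every HME rat was above every other rat, and control and model rats overlapped. For HME against control the log2 fold change was 0.74 (95% interval 0.39 to 1.10) with an edgeR FDR of 0.0264, and DESeq2 gave an FDR of 0.000987. For HME against model it was 0.57 (0.17 to 0.97) with an unadjusted p of 0.0112 and an edgeR FDR of 0.405. Model against control gave 0.18 (-0.12 to 0.48, FDR = 0.597). The HME to control FDR was 0.0876 without control replicate 3, its highest value over the alternatives.

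**Figure D3:**
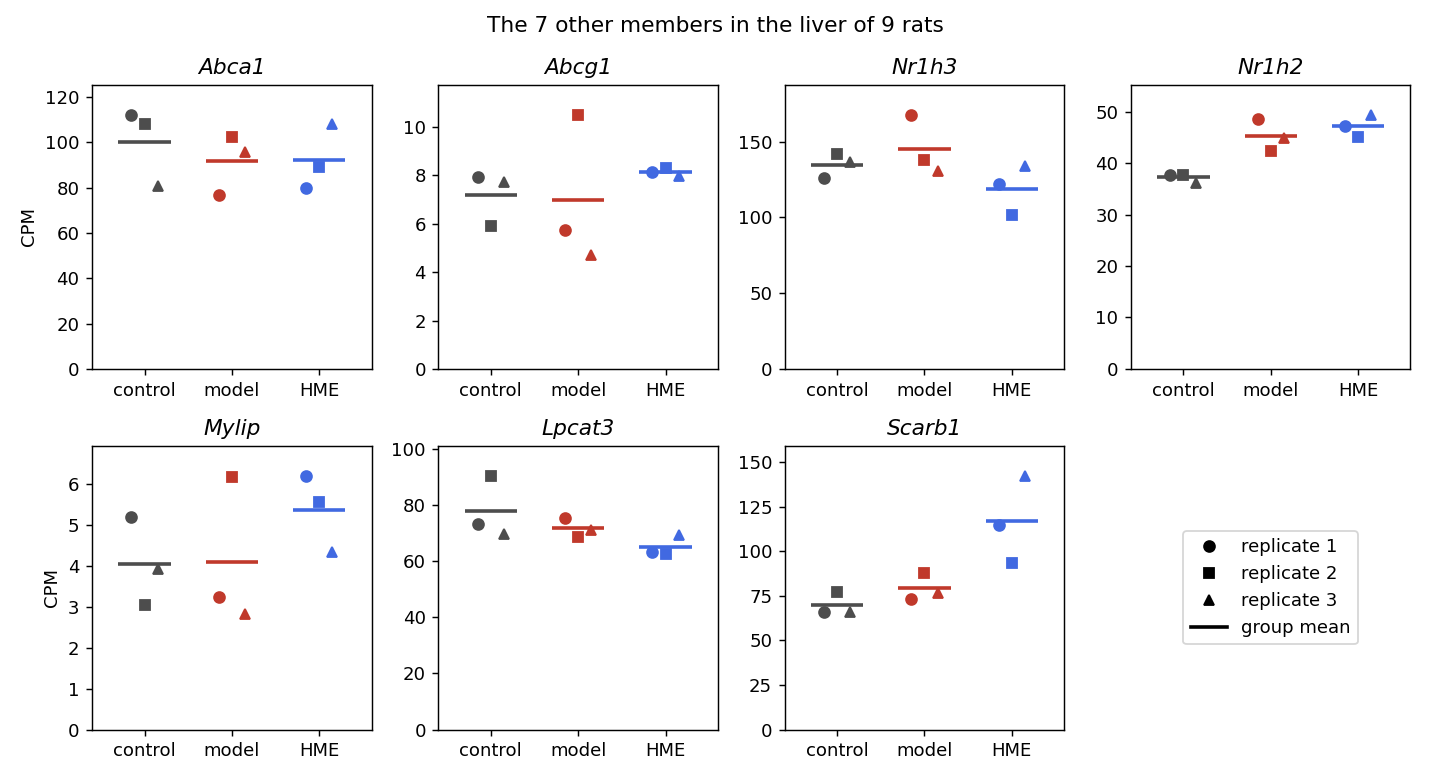
Level in CPM, on linear axes from 0, of the 7 other members in each of the 9 rats, with bars for group means. Nr1h2 separates the control rats from the rest and Scarb1 the HME rats from the rest, while Abca1, Nr1h3 and Mylip overlap between all groups.

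Calls in either direction needed 0.5 or more on the log2 scale, with an FDR no higher than 0.01 over all genes tested. Of the 7 other members edgeR called 0 in each comparison, where it called 0.0801% of 12486 genes for model against control, 0.136% of 12502 for HME against model and 1.48% of 12633 for HME against control. At an unadjusted p under 0.05 there were 1, 1 and 2 of the 7, near the 13.2%, 8.02% and 24.3% of all genes tested. DESeq2 called 0, 0 and 1 of them, the last being Scarb1, and 2.05%, 1.18% and 6.09% of all genes.

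With the FDR limit raised to 0.05, edgeR called 0, 0 and 1 of the 7, again Scarb1, against 0.601%, 0.456% and 6.36% of all genes. Groups did not overlap for 1, 1 and 4 of the 7, against 21.1%, 14.0% and 30.1% of all genes tested. Each comparison shares rats with the other 2, so their fold changes are not independent of each other.

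**Figure D4:**
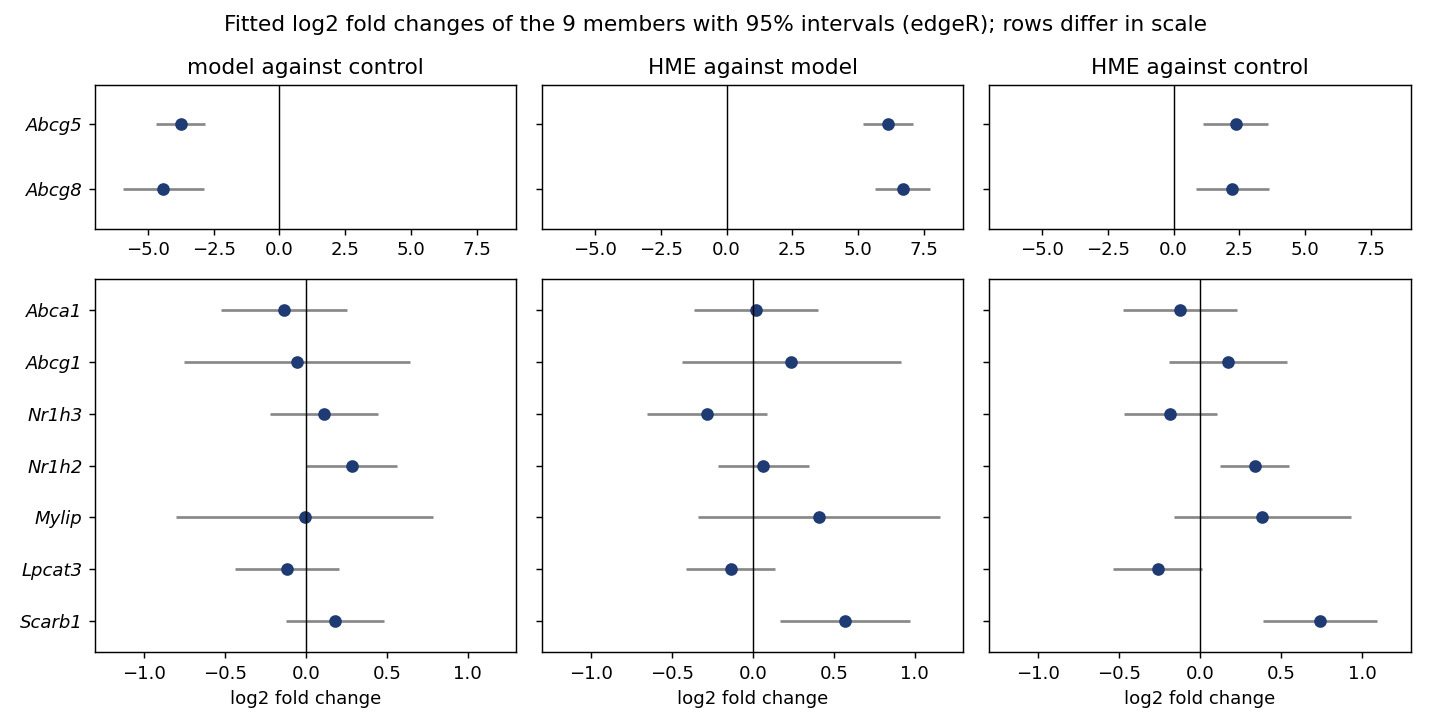
Log2 fold change of the 9 members in the 3 comparisons, as fitted by edgeR, with 95% intervals of the fit as lines. Abcg5 and Abcg8 were selected on these same values, so nothing is read from their intervals. The upper row has a wider scale: Abcg5 and Abcg8 lie at -3.75 and -4.41 in model against control at 6.14 and 6.69 in HME against model and at 2.36 and 2.24 in HME against control, while the 7 other members in the lower row lie between -0.28 and 0.74.

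The wider pathway was read from 7 lists holding 91 distinct genes of the count table, 86 of which were tested in each comparison. Of these edgeR called 0, 1 and 7 in model against control, HME against model and HME against control, beside 24, 15 and 36 with an unadjusted p under 0.05. DESeq2 called 6, 7 and 18. The shares of all genes tested that these counts, and those of each list, stand beside are 0.0801%, 0.136% and 1.48% for the edgeR calls, 13.2%, 8.02% and 24.3% for the unadjusted p and 2.05%, 1.18% and 6.09% for DESeq2. Groups did not overlap for 30.2%, 22.1% and 36.0% of the listed genes, against 21.1%, 14.0% and 30.1% of all genes tested. The median log2 fold change over the 86 genes was -0.13, 0.05 and -0.03, against 0.00, 0.00 and -0.01 over all genes tested. Without control replicate 1, control replicate 3, HME replicate 1 or HME replicate 2 the 7 calls became 4, 3, 3 and 3. The 1 call in HME against model was lost without model replicate 3 or without HME replicate 1.

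Among 14 other LXR target genes, edgeR called 0, 1 and 5 in the 3 comparisons, beside 0.0801%, 0.136% and 1.48% of all genes. At an unadjusted p under 0.05 by edgeR there were 5, 6 and 9 of the 14, and DESeq2 called 1, 4 and 7. Scd, the desaturase that makes oleate, was at 8725, 13956 and 11256 CPM in control, 8039, 9732 and 8166 CPM in model and 104, 213 and 57.0 CPM in HME rats. It fell in HME against model, with a log2 fold change of -6.11 (edgeR FDR = 0.00266), or -6.73 without HME replicate 2. The HME rats were thus the lowest of all for Scd, as they were the highest for Abcg5 and Abcg8. Fasn, for fatty acid synthase, and Acaca, for acetyl-CoA carboxylase, had -3.60 and -2.04 in that comparison. Their edgeR FDR was 0.0329 and 0.0499, so edgeR did not call them, while DESeq2 called both.

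Against control, Scd, Fasn, Acaca and Srebf1 fell in the HME rats, with log2 fold changes of -6.51, -4.02, -2.32 and -1.69 (edgeR FDR = 0.00532, 0.00183, 3.9e-05 and 0.00244). Without HME replicate 2 the value of Scd was -7.13. Srebf1, for the lipogenic transcription factor SREBP-1, was at 568, 860 and 603 CPM in control, 454, 214 and 608 CPM in model and 170, 219 and 242 CPM in HME rats. Its HME and model ranges overlapped, and model replicate 2 was below the other model rats. Smpdl3a, a phosphodiesterase gene, rose by 0.995 on the log2 scale in HME against control (FDR = 0.00649). In model against control edgeR called 0 of the 14, with 5 at an unadjusted p under 0.05, and DESeq2 called 1, Lpl, the lipoprotein lipase gene, whose fitted value of 1.505 was the highest of the list. Cyp7a1, the rate-limiting enzyme of bile acid synthesis, had the lowest, -1.39, or -2.15 without model replicate 3. It was at 283, 488 and 454 CPM in control rats and at 90.4, 94.2 and 284 CPM in model rats. The list's median was -0.22, -0.12 and -0.16 in the 3 comparisons.

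Of the 15 genes for RXR and the cofactors of LXR, edgeR called 0 in model against control and 0 in HME against model, with 2 and 0 at an unadjusted p under 0.05, and DESeq2 called 1 and 0. Rxra, the main RXR gene of liver, had 0.45 in HME against model, the highest of its list there, and Rxrg had the lowest, -0.12. Model replicate 1 stood apart for Rxra, at 93.1 CPM, against 277 and 222 CPM in model replicates 2 and 3. The HME rats had 258, 260 and 285 CPM of Rxra, so the model and HME ranges overlapped. Tbl1xr1, for a subunit of the corepressor complex, had the highest value in model against control, 0.49, and in HME against control, 0.63.

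The 8 tested genes that form or remove oxysterols and desmosterol, the ligands of LXR, held 0 edgeR calls, with 5, 3 and 4 at an unadjusted p under 0.05, while DESeq2 called 2, 1 and 2. Cyp7b1, an oxysterol 7α-hydroxylase, was at 47.1, 11.9 and 17.6 CPM in control, 2.57, 4.12 and 2.65 CPM in model and 3.91, 3.67 and 9.82 CPM in HME rats. Its log2 fold change was -3.05 in model against control (edgeR FDR = 0.0597), where DESeq2 called it. In HME against control it was -2.14 (edgeR FDR = 0.151), and DESeq2 did not call it. Without control replicate 1, the highest rat, these fold changes were -2.25 and -1.34, and without HME replicate 3 the second was -2.75. Sult2b1, a sterol sulfotransferase, had the highest value in model against control, 0.79, and the lowest in HME against model, -1.97 (edgeR FDR = 0.12). DESeq2 called Sult2b1 in HME against model. All 8 genes had a fitted value under 0 in HME against control, where the list's median was -0.50 and Cyp51, of cholesterol synthesis, was nearest to 0.

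Of 9 other transcription factors known to act on Abcg5 and Abcg8, edgeR called 0 in each comparison, with 2, 0 and 1 at an unadjusted p under 0.05, and DESeq2 called 0, 0 and 1. Hnf4a, a master regulator of hepatocyte genes, had the lowest value in model against control, -0.41 (FDR = 0.371). Nr1h4, for the bile acid receptor FXR, had the lowest in the other comparisons, -0.41 and -0.33. Nr1d1, for the clock repressor REV-ERBα, was the widest-ranging. It was at 8.53, 2.03 and 5.66 CPM in control, 13.2, 81.7 and 27.3 CPM in model and 105, 101 and 83.8 CPM in HME rats. The order of its groups, with the control lowest, differs from that of the pair, in which the model was lowest. Its value in HME against control was 4.12 (edgeR FDR = 0.0111), and DESeq2 called it.

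Among 23 tested genes of sterol uptake, traffic and esterification, edgeR called 0, 0 and 1, with 8, 2 and 11 at an unadjusted p under 0.05, and DESeq2 called 2, 0 and 4. Stard5, a cytosolic sterol carrier, fell by 0.74 on the log2 scale in HME against control (FDR = 0.00679). In model against control the highest and lowest values were those of Insig2, 1.002, and Insig1, -0.95, both retention proteins of SREBP. Soat2, which esterifies cholesterol, had 0.84 there (edgeR FDR = 0.0497). DESeq2 called Soat2 and Insig1 in that comparison. Apoa1, the main protein of HDL, had 0.73 and 0.81 in the HME comparisons, and Nceh1, a cholesteryl ester hydrolase, had -0.77 in HME against model.

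The other canalicular exporters were set beside the pair because they share its membrane. Of 5 tested, edgeR called 0 in each comparison, with 1, 2 and 3 at an unadjusted p under 0.05, and DESeq2 called 0, 1 and 2. All 5 had a value above 0 in HME against model, with a median of 0.48. Abcc2, the exporter of conjugated bilirubin, was at 615, 407 and 343 CPM in control, 161, 340 and 363 CPM in model and 998, 958 and 596 CPM in HME rats. The HME rats were above all model rats, with a value of 1.57 (edgeR FDR = 0.141). DESeq2 called Abcc2 both in this comparison and in HME against control. Abcb4, the phosphatidylcholine floppase, had 0.51 in model against control, 0.48 in HME against model and 0.98 in HME against control (FDR = 0.0185). DESeq2 called Abcb4 in the last of these. Abcb11, the bile salt export pump, had 0.21 in HME against model, and Abcg2 had the lowest value in HME against control, -0.06.

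Relatives of the members, from the ABCA, ABCG, LPCAT and scavenger receptor families, were set beside the pair. Of 13 tested, edgeR called 0 in each comparison, with 1, 2 and 3 at an unadjusted p under 0.05, and DESeq2 called 0, 1 and 1. In model against control 10 of the 13 had a value under 0, with a median of -0.17. In HME against model 10 had a value above 0, with a median of 0.33. In HME against control 7 were above 0 and 6 under, with a median of 0.08. Whether these directions differ from those of all genes was not tested. Abca8 had the lowest value in model against control, -0.55, and the highest in HME against model, 0.84. Abcg3l1 had 0.43 and -0.85 in these comparisons. In HME against control Abca6 had the highest, 0.57 (edgeR FDR = 0.0367), and Lpcat1 the lowest, -0.52. DESeq2 called Abca6 there.

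**Figure D5:**
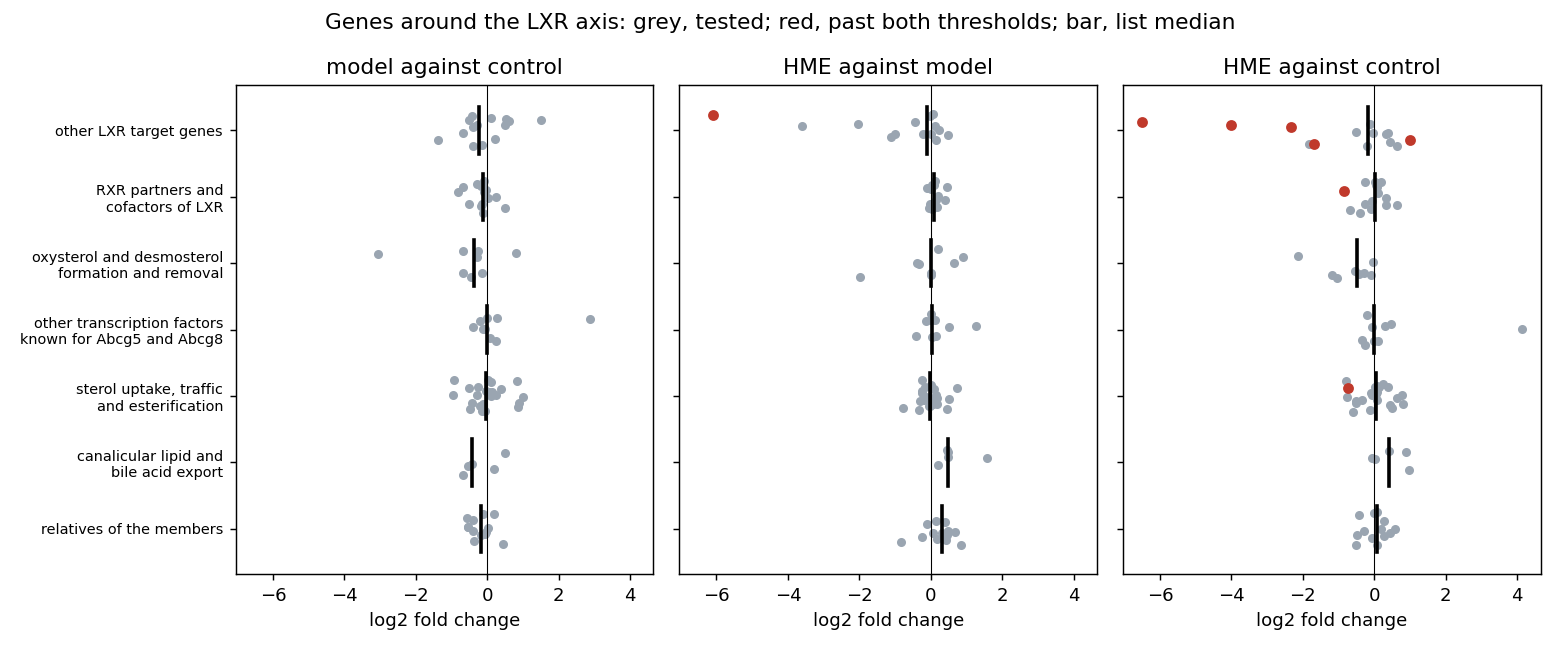
Log2 fold change of each tested gene on the 7 lists in the 3 comparisons, as fitted by edgeR, with called genes in red, other tested genes in grey and a bar at each list's median. The calls are Scd at -6.11 in HME against model and 7 genes in HME against control, 5 of them among the other LXR targets, and every list's median lies within -0.50 to 0.48.

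Genes whose pattern over the 9 rats was most like that of the pair were ranked by Pearson's r of log2(CPM + 0.5) with the mean of Abcg5 and Abcg8, over 12888 genes. The 9 rats share 3 group means, so r is a description. The highest were Nfe2 (r = 0.97), Itga2b (r = 0.93), Asl (r = 0.93), Cyp2e1 (r = 0.93) and RGD1559960 (r = 0.92). Nfe2 was at 4.33, 2.69 and 3.53 CPM in control, 1.11, 0.900 and 0.987 CPM in model and 5.98, 6.85 and 5.17 CPM in HME rats. Asl, of the urea cycle, was at 220 to 236 CPM in control, 167 to 185 CPM in model and 245 to 357 CPM in HME rats. Cyp2e1, an ethanol-oxidizing P450 enzyme, was at 1671 to 1986, 1111 to 1241 and 2013 to 3051 CPM. The groups did not overlap for Nfe2, Asl and Cyp2e1. Control and HME rats did overlap for Itga2b, at 18.64 CPM in control replicate 3 and 18.60 CPM in HME replicate 3. They also overlapped for RGD1559960, at 40.6 CPM in control replicate 1 and 35.7 CPM in HME replicate 1. The genes were ranked on these same levels, so nothing is read from their separation. The lowest were LOC103694169 (r = -0.98), Rpa1 (r = -0.96) and Med8 (r = -0.96). By Spearman's rho, 2 of the 5 highest and 2 of the 3 lowest were the same genes.

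The 7 other members were less like the pair. Their r was 0.57 for Scarb1, 0.51 for Mylip, 0.39 for Abcg1, 0.11 for Nr1h2, 0.04 for Abca1, -0.41 for Lpcat3 and -0.64 for Nr1h3. The receptor gene Nr1h3 thus had the lowest r of the axis.

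Markers of other cell types were read because the pair is also expressed by enterocytes. The 5 matched intestine markers summed to 62.4 to 199 CPM in control, 38.8 to 87.2 CPM in model and 26.3 to 118 CPM in HME rats, with nearly all of it from Cdh17. Fabp2 and Vil1 were at most 1.24 CPM, and Lgals4 and Cdx2 were at or near 0, in every rat. The sum thus follows the level of Cdh17 alone and is not read as a measure of intestinal RNA. The 11 matched Kupffer cell and macrophage markers summed to 474 to 963, 360 to 749 and 475 to 668 CPM, and 6 bile duct markers to 16.9 to 23.6, 15.5 to 34.0 and 22.2 to 24.0 CPM. The groups overlapped in each of these sums. Of the 11 Kupffer cell and macrophage markers, 0 had a value above 0 in model against control and 0 in HME against control. In HME against model 9 of them did. Their median log2 fold change was -0.23, 0.06 and -0.16 in model against control, HME against model and HME against control, and edgeR called 0 in each. The 7 matched endothelial markers, 7 stellate markers and 2 matched pancreas markers summed to 210 to 297, 99.5 to 112 and 13.1 to 16.3 CPM in control, 157 to 355, 78.5 to 132 and 18.5 to 28.0 CPM in model, and 213 to 296, 108 to 121 and 16.1 to 26.4 CPM in HME rats. Of these, the pancreas sum did not overlap between control and model rats. Nearly all of it was from Cela1. The part of cell makeup in the results was not tested further.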

How the data were processed

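Liver RNA of 9 rats, 3 per group by the labels, was sequenced. Per the submitters' processing notes the authors aligned reads to Rnor_6.0 with HISAT2 and counted them with HTSeq 0.6.1, without regard to strand by the study's methods. The deposited values are raw counts per gene, without normalization. The labels name the mouse as organism but Wistar rat as strain, and the gene identifiers are the rat's, so samples were read as rat. A table of assembled transcripts was left out, as no source names its unit.

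Each comparison was fitted on its 6 libraries with edgeR 4.0.16 in R 4.3.3 (filterByExpr, TMM factors from 0.871 to 1.14, robust glmQLFit, two-sided glmQLFTest, Benjamini-Hochberg over all genes tested). Calls needed 0.5 or more on the log2 scale in either direction, with an FDR no higher than 0.01, as the study set them. DESeq2 1.42.0, other scalings and filters, one fit of all libraries, the replicate block, an FDR of 0.05 and leaving out each rat were alternatives. The script was tested on simulated data. The members and lists were chosen with earlier results of these data known. Listed genes are named when called, or when highest or lowest of their list in a comparison. Soat2 falls outside that rule and was named after its values were seen. Some single genes are not reported here. Mlxipl, Arl4c, Abcb1a and Cd36 had no match by symbol. The motif search had been planned for rat promoters, and those of the mouse were used instead. Ch25h, Cyp46a1, Npc1l1, Abcg4 and Lpcat4 had too few counts to be tested. P-values rest on 3 separate rats a group, where an exact permutation test of 1 gene could not go below p = 0.1.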

Additional observations from a re-analysis of the deposited data

How the results depend on the processing

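Of 349 fold changes of members recomputed, 324 kept their direction and side of the threshold, and 13 fold changes of genes not called changed sign. Of 84 counts of calls recomputed, 60 lay within 1.5 times the reported count and 24 did not. The cause of these and of the following shifts was not tested. Nothing is read from calls of Abcg5 and Abcg8, which the counts of members include. Members called in model against control were 1 with no filter, 2 with DESeq2 and 2 at an FDR of 0.05, against 0. In HME against model they were 1 where at least 10 counts were asked of every library, which removes Abcg8, and 0 to 2 without single rats, against 2. The count was 0 without model replicate 1 and 1 without model replicate 3. In HME against control they were 1 with no filter, 3 with DESeq2, 2 with the replicate block and 1 at an FDR of 0.05, against 0. Same-numbered rats did not deviate together (r from -0.252 to -0.0148 over 9 pairs), and r ran from -0.161 to 0.244 for rats of other numbers. No pairing by number was seen, but with so few rats a group this does not show that the samples were unpaired.

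For the wider lists, DESeq2 called 6, 7 and 18 genes in the 3 comparisons, an FDR of 0.05 gave 1, 3 and 17, and no filter gave 0 in HME against model and 12 in HME against control. Leaving out single rats gave 0 to 1 in HME against model and 3 to 5 in HME against control. With library size alone Nr1h3 was at -0.041 in model against control and Abca1 at -0.0035 in HME against model. Without single rats, model against control ran from -0.46 to 0.16 for Abcg1, -0.021 to 0.18 for Nr1h3, -0.42 to 0.23 for Mylip and -0.18 to 0.0058 for Lpcat3, and HME against model from -0.11 to 0.11 for Abca1. Depth limits the model values of the pair, and 5 listed genes had too few counts to be tested.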
